A study of Mus musculus with 17 samples.

Results

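Sfi1 is represented by 1 start site, that of transcript NM_030207, at chromosome 11, position 3093466 (mm9), which the authors classed as a high-CpG promoter (HCP). It was found by matching the RefSeq identifier of every row to gene symbols, and it is 1 of 24084 distinct start sites in each of 6 pileup tables and 1 of 16482 in each of 8 count tables. The gene was chosen by its summed signal, which is the highest or second highest in each table, so its height above other start sites is a description, with no test, and supports nothing by itself. Tests are given for the order of values over MNase doses, which that choice did not use. Only 1 Sfi1 transcript is listed, and no second start site of the gene could be compared with it.

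Sfi1 encodes a centrin-binding protein of the centrosome, the structure that organises microtubules and the poles of the mitotic spindle. Micrococcal nuclease (MNase) cuts the DNA between nucleosomes more readily than the DNA wrapped around them, so sequenced fragments of nucleosome length mark protected DNA. In sperm most histones are replaced by protamines, and the nucleosomes that stay are of interest at CpG-rich promoters in particular.

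The ES cell library came from the E14 line (strain 129 X Ola), digested with MNase, and its supernatant after a spin at 5000 g for 5 min was sequenced. All sperm came from 10-week-old C57/B6J mice, from the cauda epididymis and vas deferens, and had been crosslinked with 1% formaldehyde for 15 min, which the protocol does not state for ES cells. The standard sperm library is the supernatant of a digestion with far less enzyme per cell than for ES cells, and a titration added an unspun series at 0.5, 2, 10 and 50 units and a supernatant and a pellet series at 1, 5, 20 and 100 units each. Each group held 1 library, so no value has a replicate error. Cell type, strain, crosslinking and enzyme per cell cannot be told apart between ES cells and sperm. The labels do not say whether sperm of several mice were pooled. Tables were at hand for 14 of the 17 samples, and the unspun ES cell, sonicated sperm input and histone H3 libraries were not analysed here.

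The ES cell and standard sperm tables are deep, with a mean of 32.2 and 21.6 fragments within 1000 bp of a start site. The 12 titration tables are shallow, with a mean of 0.212 to 0.947 fragments per start site, so that a typical start site holds no more than about 1 fragment. Sfi1 is the only start site common to all tables with 5 or more fragments within 1000 bp in each of them, and it holds between 8.13 and 46.3 in the titration libraries. Fragment numbers are equivalents, obtained by dividing the summed values by what an isolated fragment adds, and the 95% intervals below are exact Poisson or binomial intervals on them that cover counting error only.

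The Sfi1 promoter stood far above the average start site in every library. The level is the sum of all values up to 1000 bp either way from the start site, relative to the average of such sums across the table. It was 41.7 in ES cells (interval 39.5 to 44, from 1341 fragments) and 39.5 in standard sperm (36.9 to 42.3, from 852 fragments). These levels lie close together. In the unspun series the level was 29.3 at 0.5 units (18.7 to 43.6), 38.9 at 2 units (26.5 to 55), 42.2 at 10 units (28 to 61) and 32.7 at 50 units (20.6 to 49.5). All 4 intervals overlap one another and hold values near those of the deep libraries. In the supernatant series it was 57.3 at 1 unit (42 to 76.4), 56.4 at 5 units (36.2 to 83.7), 42.9 at 20 units (28.6 to 61.9) and 36 at 100 units (25 to 50.3). In the pellet series it was 70.4 at 1 unit (39.3 to 116.2), 22.8 at 5 units (9.93 to 44.7), 48.5 at 20 units (29.8 to 74.7) and 32.4 at 100 units (21.7 to 46.6). The lowest and the highest of the 14 levels are thus both pellet libraries, which hold the fewest Sfi1 fragments, 8.13 and 14.9.

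**Figure D1:**
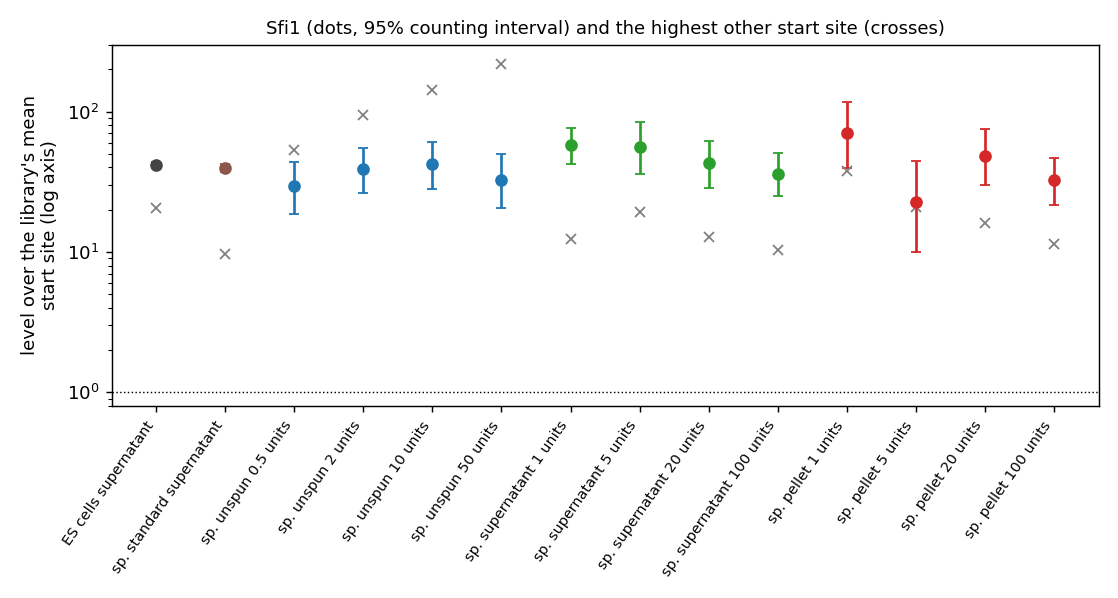
Level of Sfi1 (dots, with 95% counting intervals) and of the highest other start site (crosses) in each of 14 libraries, relative to the mean start site of the same table (dotted line at 1, log axis). Sfi1 lies between 22.8 and 70.4, and the crosses lie above it in the 4 unspun libraries and below it in the other 10.

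Sfi1 ranked first in 10 of the 14 tables and second in the 4 unspun tables, so the description of Sfi1 as the highest promoter does not hold for the unspun series. The start site above it there was that of NR_030494, a non-coding transcript at chromosome 17, position 39981080 (mm9), with no symbol match. It has no row in the count tables, so it could not be ranked against Sfi1 in the supernatant and pellet series. Its level was 20.6 in ES cells and 9.68 in standard sperm, below Sfi1 in both, and 53.1, 94.2, 141.9 and 216.7 at 0.5, 2, 10 and 50 units in the unspun series, where Sfi1 had 29.3 to 42.2. Among the start sites common to all tables, Sfi1 was the only one with a level of 5 or more in all 14 libraries, which is 0.00607% of 16482. The next by median level over the libraries was 4931408C20Rik, with a median of 8.34 against 40.6 for Sfi1 and a range of 1.23 to 15.6, followed by Hjurp, which encodes a chaperone of the centromeric histone CENP-A, with a median of 3.78 and a lowest value of 0. Both were named after their values were seen, since no start site other than Sfi1 reached 5 in all libraries. No gene could be ranked by likeness to Sfi1 across libraries either, because no other start site held 5 fragments in each of the 14.

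The high signal was not a narrow peak at the promoter but a long stretch with sharp structure inside it. In ES cells all 200 bins of 20 bp within 2000 bp of the start site lay above the table's mean bin, and 98.5% of them lay above 5 times that mean. The corresponding shares in standard sperm were 100% and 93.5%. The flanks from 1000 to 2000 bp on each side alone had a level of 29.9 in ES cells and 39.5 in standard sperm, and between 11.7 and 48.4 over the 14 libraries.

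The count tables reach 5000 bp to each side and show how far the stretch goes. With the 4 doses pooled, every 1 kb segment of the Sfi1 window was high, between 20.9 and 46.2 times the mean bin in the supernatant series and between 20.2 and 48.4 times in the pellet series. The segments next to the start site were among the higher ones, at 45 and 45.9 times the mean bin upstream and downstream in the supernatant series and 38.3 and 48.4 times in the pellet series. The segment from 2000 to 3000 bp downstream was the lowest in both, at 20.9 and 20.2 times. Single libraries varied more, from 4.18 to 99.9 times the mean bin.

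The upstream end of the stretch could be seen in the window of the next gene. Eif4enif1, which encodes a transporter of the translation factor eIF4E, has its start site at position 3102585, 9119 bp away, and is read in the opposite direction. The 18 bins that the windows share correlated at r = 0.87 when one was reversed and at r = -0.30 when it was not (bins of the same 8 libraries, as a description). From 5000 to 2500 bp upstream of Eif4enif1 the pooled level was 29.4 times the mean bin in the supernatant series and 28.3 times in the pellet series. From 2500 bp upstream to its start site it was 1.87 times and 0.88 times. The change fell within about 100 bp. The edge was set where the sum of the 8 libraries was first at 0 for 10 bins in a row, so zeros after it are part of its definition. It lay at position 3100135, which is 6669 bp upstream of Sfi1. The 50 bins before it held 461 counts, and the zeros after it lasted 600 bp. On the downstream side the last bin above 5 times the mean bin ended at 4850 bp, position 3088616, so the high signal ran over 11519 bp. The 3 bins after it, up to the end of the window, held 2 counts in the 8 libraries together, against 40 in the 3 bins before them, and whether the stretch ends there or goes on beyond the window cannot be told from these tables. In the pileup tables the stretch from 6889 to 7889 bp upstream of Sfi1 was at 1.61 times the mean bin in ES cells and 0.767 times in standard sperm, against 40.2 and 46 times over the first 2000 bp upstream.

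**Figure D2:**
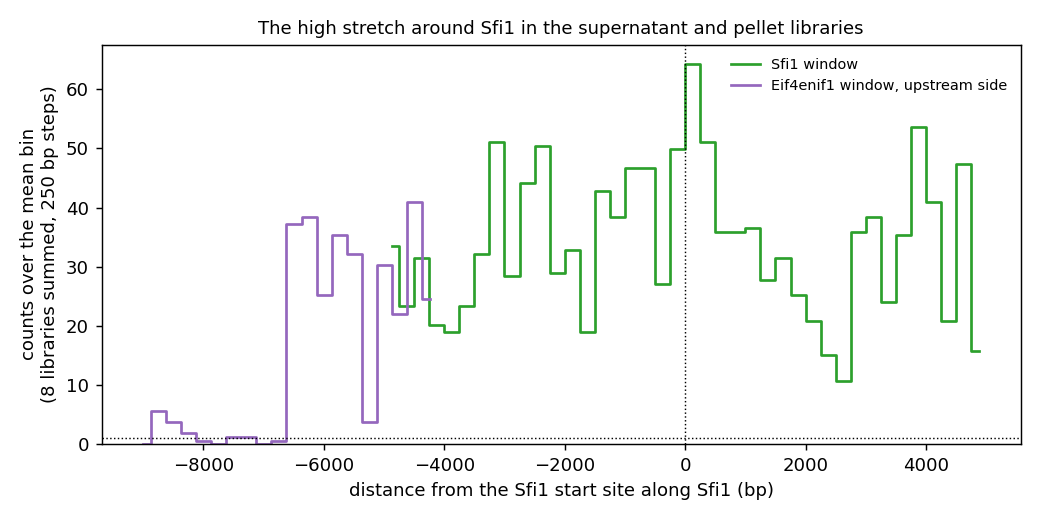
Counts per bin in steps of 250 bp, summed over the 4 supernatant and 4 pellet libraries and divided by the mean bin (dotted line at 1), against distance from the Sfi1 start site. The Sfi1 window (green) is above the mean at every step, and the upstream side of the Eif4enif1 window (purple) falls to near the mean 6669 bp upstream of Sfi1.

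No other promoter nearby shared the high level in the deep libraries. Within 200 kb there were 11 start sites of 7 other genes, with levels of 0.0933 to 2.35 in ES cells (median 0.881) and 0 to 0.978 in standard sperm (median 0.398). The highest in both was Pik3ip1, which encodes a regulator of PI3-kinase, at 2.35 and 0.978. The nearest Eif4enif1 start site had 0.961 and 0.556, and Drg1, which encodes a developmentally regulated GTPase, had 1.11 and 0.843. The pseudogenes Pisd-ps1 and Pisd-ps3, on the other side of Sfi1 at about 69 kb, had 3 fragments in ES cells and 0 in standard sperm. With so few, the interval of their log2 ratio of sperm to ES cells reached up to 1.85. No source used here says how reads that match several places were treated, and the number of copies of the stretch in each strain was not measured, so a level of 40 cannot be read as protection per copy of the gene.

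Inside the stretch, ES cells and standard sperm shared most of the positions of high and low signal. After smoothing over 5 bins, ES cells had 8 peaks within 2000 bp and standard sperm had 6, and all 6 sperm peaks lay within 60 bp of an ES cell peak. All 5 sperm troughs lay within 20 bp of an ES cell trough. The highest ES cell peak was at -340 to -320 bp, upstream of the start site, with a smoothed pileup of 615, 76.4 times the table's mean bin. Further ES cell peaks stood at -640 to -620 bp (65.7 times) and at 860 to 880 bp (66.7 times). In standard sperm no peak was found near -340 to -320 bp. Its highest smoothed signal was near the upstream edge of the window (85 times), with peaks at 1700 to 1720 bp (84.2 times) and -620 to -600 bp (80.5 times). Without smoothing, the highest sperm bin was at the other end of the window, at 1980 to 2000 bp (92.2 times). The trough at about -1000 bp had 5.76 times the mean bin in ES cells and 5.75 times in sperm, and the one at 440 to 460 bp had 6.41 and 3.48 times. A small peak at 220 to 240 bp had 18.8 and 8.12 times. The profiles correlated at r = 0.78 over 200 bins of 20 bp, which share fragments between neighbours.

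The start site itself lay at the edge of a low region that was lower in sperm. The segment from 0 to 200 bp downstream held 2.15% of the fragments of the Sfi1 window in ES cells (55.1 of 2569) and 0.695% in standard sperm (14.5 of 2087), a log2 ratio of -1.63 with an interval from -2.64 to -0.81. From 200 to 400 bp it held 2.32% and 0.906%, a log2 ratio of -1.35 (-2.19 to -0.59). The segment with the ES cell peak, -400 to -200 bp, held 10.4% and 5.71%, a log2 ratio of -0.87 (-1.19 to -0.55). Sperm was higher at both ends of the window, with log2 ratios of 0.56 (0.25 to 0.88) from -2000 to -1800 bp and 0.62 (0.24 to 0.99) from 1400 to 1600 bp. Of 20 segments of 200 bp, the interval lay below 0 in 6, which span -400 to 600 bp and 800 to 1000 bp, above 0 in 4, and held 0 in 10. The other high-CpG start sites pooled were lower in sperm in the same place: their mean over the first 300 bp downstream was 0.316 times that of the flanks from 1000 to 2000 bp in ES cells and 0.169 times in standard sperm, against 0.485 and 0.136 times at Sfi1, and whether Sfi1 differs from its class in this was not tested. The segment intervals cover counting error in 1 library each. A fragment at a segment's border adds part of its signal to each neighbour, so neighbouring segments are not independent. Enzyme per cell also differed between the ES cell and standard sperm digestions, and its part in these ratios was not tested.

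**Figure D3:**
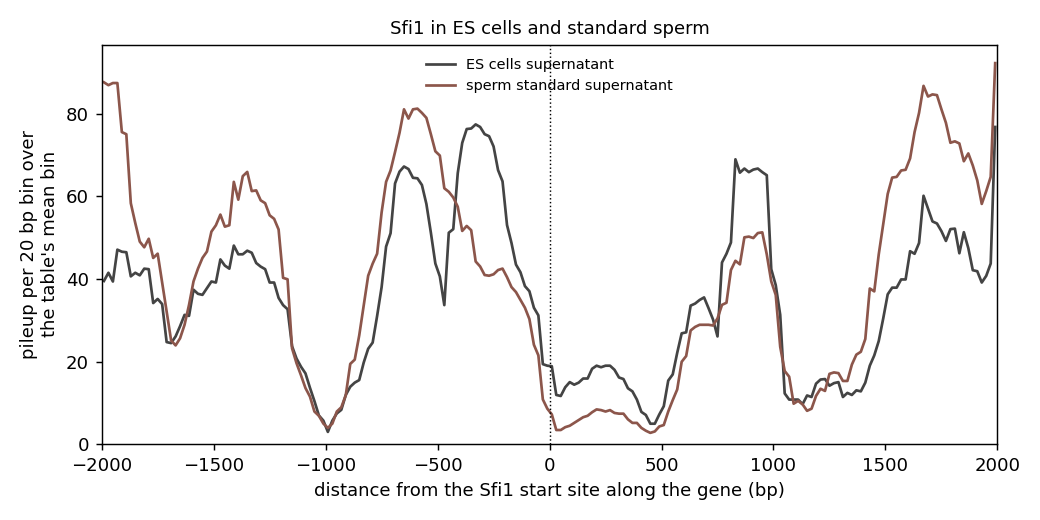
Pileup per 20 bp bin at Sfi1, divided by the mean bin of the table, in ES cells and standard sperm, against distance from the start site (dotted line). The curves share their troughs near -1000 bp, and sperm is lower around and after the start site and higher towards both ends.

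The segment ratios compare shares of the Sfi1 window within 2000 bp, and the 4 segments higher in sperm all lie beyond 1000 bp. The level within 1000 bp is on another scale, relative to the mean start site of each table, and on it the 2 libraries were close. The log2 ratio of the sperm to the ES cell level was -0.08 with an interval from -0.20 to 0.05. The median log2 ratio was -0.11 over 21883 start sites with 20 or more fragments in both libraries together, of which 9.34% had a ratio of -1 or less and 6% a ratio of 1 or more, and -0.27 over 9990 high-CpG start sites. The value for Sfi1 followed the window, at -0.43 within 200 bp and 0.17 within 2000 bp.

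Across the unspun titration the place of the highest signal at Sfi1 moved from upstream to downstream of the start site. At 0.5 units the highest smoothed bin was at -360 to -340 bp, close to the ES cell peak, and at 2 units at -400 to -380 bp. At 10 and 50 units it was downstream of the start site, at 300 to 320 bp and 280 to 300 bp, with 160.9 and 142.5 times the mean bin. The segment from 200 to 400 bp downstream, chosen after the values were seen, had 0 times the mean bin at 0.5 units, 43.6 times at 2 units, 144.7 times at 10 units and 129 times at 50 units, against 16.3 times in ES cells and 7.16 times in standard sperm. Towards the downstream end of the window, from 1400 to 2000 bp, the 50-unit library had no signal at all. The correlation of the unspun profiles with that of ES cells, over 40 bins of 100 bp, was 0.68, 0.37, -0.18 and -0.23 from the lowest to the highest dose, and with standard sperm it was 0.49, 0.17, -0.36 and -0.41. The 10- and 50-unit profiles correlated at 0.85 with each other.

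**Figure D4:**
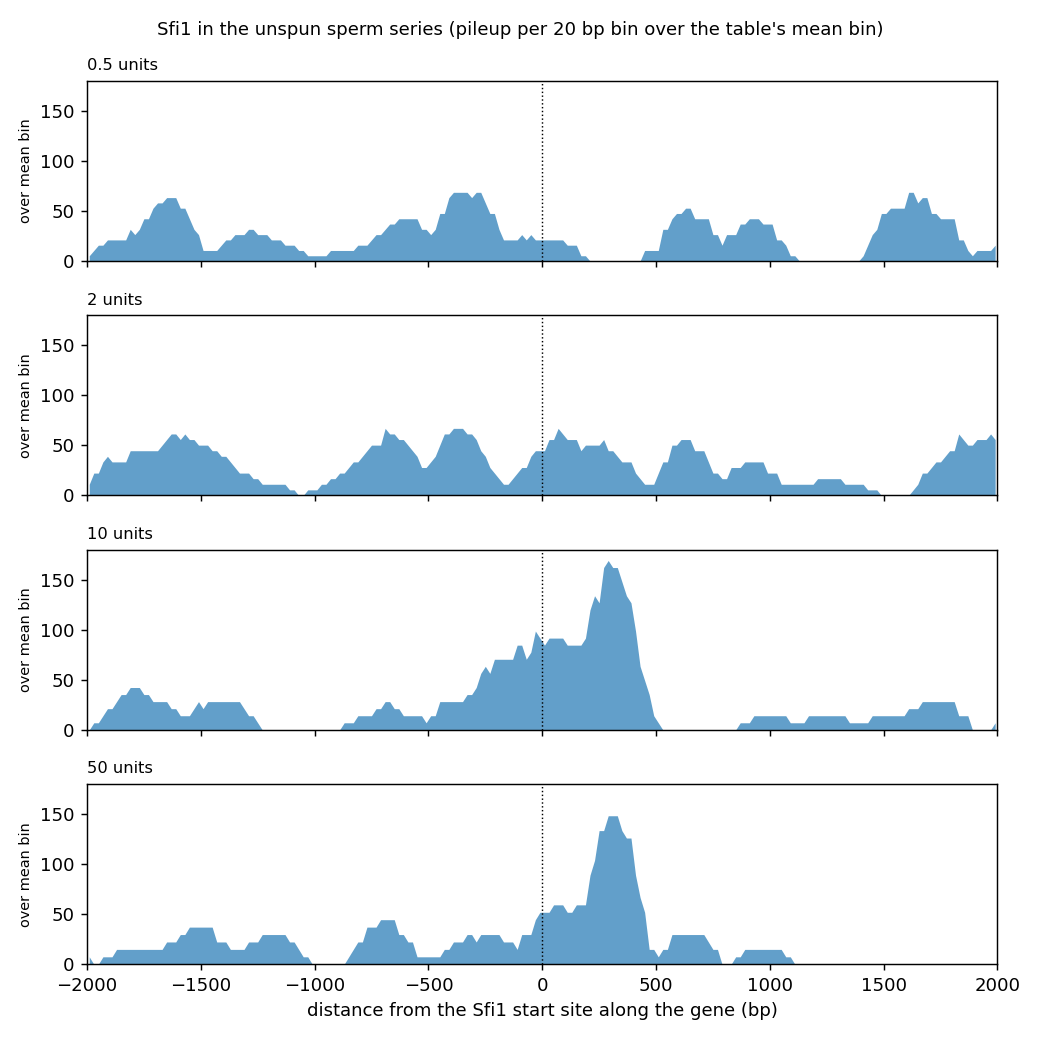
Pileup per 20 bp bin at Sfi1 over the table's mean bin in the 4 unspun sperm libraries, against distance from the start site (dotted line), on 1 scale. The signal is spread along the window at 0.5 and 2 units and is highest about 300 bp downstream of the start site at 10 and 50 units.

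To put a number on this, the mean over the first 300 bp downstream was divided by the mean of the flanks from 1000 to 2000 bp on each side. This ratio was 0.428 at 0.5 units, 1.97 at 2 units, 6.58 at 10 units and 7.47 at 50 units in the unspun series. It was 1.31, 1.85, 2.13 and 2.56 at 1, 5, 20 and 100 units in the supernatant series, and 0.909, 0.794, 1.88 and 3.15 in the pellet series. The ratio rose at each step in the unspun and supernatant series, and from 5 units on in the pellet series. The slope shared by the 3 series was 0.36 on the log2 scale per doubling of the units (exact permutation test over 13824 orderings of the doses within series, two-sided p = 0.000723, or 0.00217 after Benjamini-Hochberg adjustment over the 3 dose trends tested). It was 0.63 in the unspun, 0.14 in the supernatant and 0.30 in the pellet series alone, with exact permutation p-values of 0.0833, 0.0833 and 0.167, and whether the series differ in slope was not tested. With supernatant and pellet reordered together, as fractions at the same doses, the shared slope had p = 0.00347 (exact permutation test over 576 orderings, two-sided). The ES cell ratio was 0.485 and that of standard sperm 0.136, the lowest of the 14. Each titration ratio rests on few fragments: the 50-unit unspun value has 7.18 fragments in the first 300 bp and 6.41 in the flanks, with an interval from 2.24 to 28.

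Other promoters of its class took a course in the same direction. For the other high-CpG start sites pooled, the downstream ratio went from 0.56 at the lowest to 1.88 at the highest dose of the unspun series. The lowest and highest doses had 0.628 and 1.68 in the supernatant series and 0.824 and 2.17 in the pellet series, and the shared slope was 0.22 per doubling. The slope for Sfi1 exceeded this by 0.14, a difference that did not pass the test (exact permutation, two-sided p = 0.135). The pooled high-CpG profile too had its highest smoothed bin downstream of the start site at 10 and 50 units, at 180 to 200 bp in both, which is nearer to the start site than the peak at Sfi1.

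**Figure D5:**
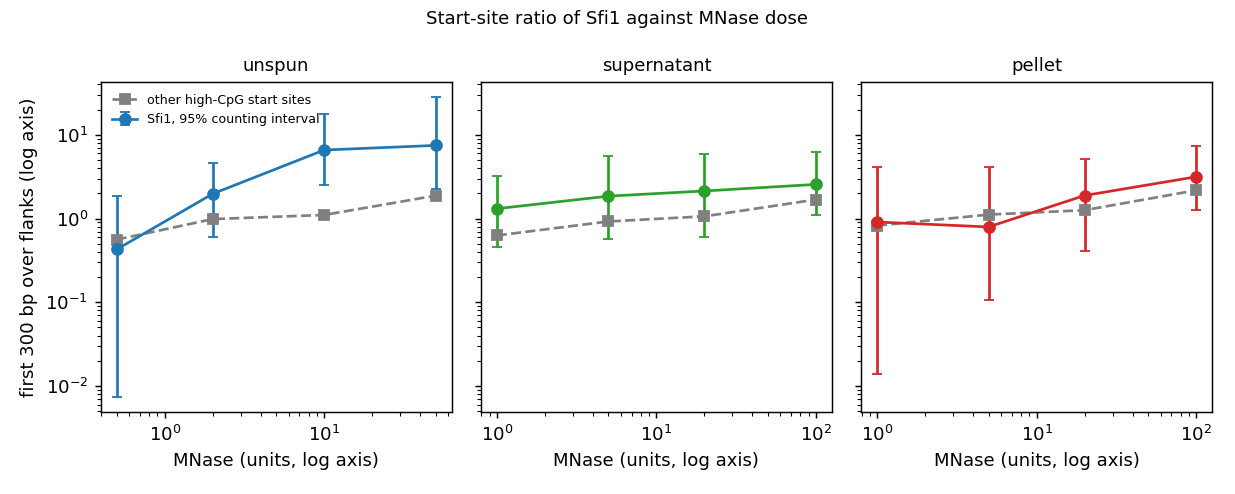
Mean signal over the first 300 bp downstream, relative to that of the flanks, against MNase units (both axes log), for Sfi1 with 95% counting intervals and for the other high-CpG start sites pooled (grey squares), in the 3 sperm series. The Sfi1 ratio rises from 0.428 to 7.47 in the unspun series, and its intervals are wide.

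On the upstream side no trend was found. The mean over the 200 bp before the start site, divided by the same flanks, was 0.911, 0.973, 4.89 and 2.84 in the unspun series from the lowest to the highest dose, 0.656, 1.48, 1.40 and 2.47 in the supernatant series and 5.00, 1.19, 0.435 and 2.36 in the pellet series. The shared slope was 0.13 per doubling (exact permutation, two-sided p = 0.387, adjusted p = 0.387). The highest of these 12 values, at 1 unit in the pellet, rests on 5.48 fragments upstream.

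The level of Sfi1 showed no trend with dose that passed the test. The shared slope was -0.06 on the log2 scale per doubling (exact permutation, two-sided p = 0.279, adjusted p = 0.387). The slope was 0.02 in the unspun series and -0.11 in both other series, where the level at 100 units was 0.628 and 0.461 times that at 1 unit. With the window widened to 2000 bp each way, the slope was -0.07 and did pass the test (exact permutation, two-sided p = 0.0382). Without the 1-unit supernatant and pellet libraries the slope within 1000 bp was 0.01 (exact permutation p = 0.922). Those 2 libraries also differ in how a fragment is recorded, since an isolated fragment spans 2 bins in them and 3 bins in the other count tables, and the part this plays in their levels was not tested.

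The difference between supernatant and pellet ran in both directions. The log2 ratio of the supernatant to the pellet level was -0.30 at 1 unit, 1.31 at 5 units, -0.18 at 20 units and 0.15 at 100 units. The interval excluded 0 at 5 units alone (0.11 to 2.68), where the pellet holds 8.13 fragments. The mean was 0.25 ± 0.73 (SD over 4 dose pairs), higher in the supernatant in 2 of 4. An exact permutation test over 4 pairs cannot give a p below 0.13, so no call was possible. Without the 5-unit pair the mean was -0.11. The labels of the 5- and 20-unit pellets state 2 and 5 units in their descriptions, against 5 and 20 in their titles and units fields, so these pairs may not be matched in dose.

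The single-library profiles of the count tables were too thin to place peaks. Their highest smoothed bins within 2000 bp were scattered from -1400 to 950 bp, at 22.3 to 76.7 fragments per library in that window. In the 100-unit libraries it was at 0 to 50 bp in the supernatant and 250 to 300 bp in the pellet, but without smoothing the highest pellet bin was at -1250 to -1200 bp. Over 40 bins of 100 bp, the correlation with the 50-unit unspun profile was 0.58 in the 100-unit pellet, 0.53 in the 20-unit supernatant and 0.41 in the 100-unit supernatant, and between 0.04 and 0.15 in the other 5.

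Other genes of the centrosome did not share the level of Sfi1. All 50 genes of a list of centrosome and centriole genes had a start site in the pileup tables. Their median level was 0.997 in ES cells and 0.998 in standard sperm, against medians of 0.977 and 0.862 over all start sites, and their highest values were 2.10 and 2.20. At 2 or more times the mean were 1 of 50 in ES cells, where 3.01% of all start sites were, and 5 of 50 in standard sperm, where 8.74% were, and none reached 5 times. The log2 ratio of sperm to ES cells was -1 or less in 4 genes and 1 or more in 3, beside 9.34% and 6% of all start sites. Over the 14 libraries the highest medians among the 43 list genes present in all tables were those of Cep120 (2.09), Ccp110 (1.37) and Cep152 (1.34). These encode proteins of centriole assembly and length control and had levels of 0.827, 1.91 and 1.10 in ES cells. As 12 of the 14 libraries are shallow, the order of the medians rests on few fragments. Among several list genes with a median of 0, the last in alphabetical order were Sass6, Stil and Tubgcp4, which act in centriole assembly and microtubule nucleation, with levels of 0.878, 1.24 and 0.985 in ES cells. The genes for centrins, the partners of Sfi1, were also far below Sfi1. Their levels ran from 0.407 for Cetn2 to 1.32 for Cetn1 in ES cells and from 0.472 for Cetn4 to 2.11 for Cetn1 in sperm. The interval of the sperm to ES cell ratio lay above 0 in 6 of the 50 list genes, beside 11.5% of 21883 start sites with 20 or more fragments, for example in Cetn2 (log2 ratio 1.33, 0.28 to 2.45) and Pcm1, which encodes a protein of the centriolar satellites (1.36, 0.34 to 2.42). It lay below 0 in 2, beside 11.6% of those start sites: Nin, which encodes a protein that anchors microtubules (-1.01, -2.03 to -0.14), and Tubgcp6, a subunit of the gamma-tubulin complex (-2.16, -3.78 to -0.68).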

How the data were processed

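For 6 libraries (ES cells, standard sperm, unspun series) the authors deposited a signal, a pileup of fragments of 135 to 165 bp (per the table names) in 20 bp bins. For the supernatant and pellet series they deposited whole-number counts per bin. Neither is scaled to depth. Column headers of the count tables step by 20 bp, but windows of neighbouring start sites overlapped at a median r of 0.81 when read at 50 bp per bin and 0.07 at 20 bp, so 50 bp was used. Rows run along the gene. The submitters' processing notes name mm9, Bowtie and SAMtools 0.1.16. Read filters: not given in the sources used here.

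Rows at 1 position were used once. An isolated fragment added 22 to the pileup, and 2.01 to 3.25 counts depending on the library. In the unspun pileups its signal spanned a median of 14 bins (280 bp), which is wider than a segment of 200 bp. RefSeq identifiers were matched to symbols with the GRCm38.p6 gene table (23565 of 24084 and 16278 of 16482 start sites). Groups and units came from the titles and units fields. Python 3.11.15, NumPy 2.4.6 and SciPy 1.17.1 were used, and the slope test was tested on simulated data. Named were Sfi1, the highest other start sites, neighbours within 200 kb and the ends of the centrosome list. Members and lists were chosen with earlier results of these data known. Alternatives covered the window, the scaling, the bin size, the highest Sfi1 bins, the doses and the series. With 1 library per group, p-values measure the order of doses, not animals or digestions. A Sfi1 promoter sequence is not printed.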

Additional observations from a re-analysis of the deposited data

How the results depend on the processing

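The rise of the downstream ratio with dose kept its direction under 13 alternatives, with slopes from 0.14 to 0.63. It did not pass the test in 1 series alone (slopes 0.63, 0.14 and 0.30), where 4 doses leave few orderings, or relative to the other high-CpG start sites (0.14), which was added after seeing the data, as were the settings without the 1-unit count tables and with the pellet units of the descriptions. The slope of the level turned in sign in the unspun series alone (0.025) and without the 1-unit count tables (0.0052), and passed the test within 2000 bp (-0.075). The upstream slope turned in the pellet series alone (-0.21). The mean log2 ratio of supernatant to pellet turned in sign within 200 bp (-0.20), within 2000 bp (-0.052) and without the 5-unit pair (-0.11). The log2 ratio of sperm to ES cells moved to -0.43 within 200 bp, 0.17 within 2000 bp and 0.16 relative to the other high-CpG start sites. The median level of Sfi1 over the libraries was 40.6 and stayed between 33.2 and 44.3 under 4 alternatives. Single shallow libraries moved by over 1.5 times: within 200 bp the level was 155.6 in the 1-unit pellet, 44.1 in the 5-unit pellet, 77.4 in the 10-unit unspun and 57.7 in the 100-unit supernatant library, and without the 5 highest Sfi1 bins it was 32.2 and 10.9 in those pellets. The median of the centrosome genes within 200 bp was 0.53 in ES cells and 0.44 in sperm. No median over all start sites within 200 bp is given here, so these values cannot be set against other genes. The cause of these changes was not tested. A second Sfi1 start site could not be tried, since 1 is listed. No fit with a replicate block was possible because each group holds 1 library and the labels give no replicate numbers, and fractions were paired by dose only. Depth limits the titration libraries, which hold 8.13 to 46.3 Sfi1 fragments within 1000 bp.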
